A study of Gallus gallus with 3 samples.

Results

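At E4, when the chicken forelimb is a bud of mesenchyme under an ectodermal jacket, limb mesenchymal cells with at least 2 UMIs of LMX1B were set against limb mesenchymal cells with none. A UMI is a molecular identifier that stands for 1 captured mRNA copy. The members were selected on measured values: barcodes with at least 1000 UMIs, at most 10% UMIs of 8 mitochondrial genes and at least 1 UMI of PRRX1, the homeobox gene of limb mesenchyme. Of 5235 E4 barcodes with at least 1000 UMIs, 5157 passed the mitochondrial limit and 4522 of these had a PRRX1 UMI. Among the 4522, 192 cells had at least 2 LMX1B UMIs (LMX1B-high cells), 562 had 1 and 3768 had 0 (LMX1B-zero cells). The whole series held 24371 barcodes with at least 1000 UMIs.

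LMX1B is a LIM-homeodomain transcription factor. In the limb bud, WNT7A made by the dorsal ectoderm induces LMX1B in the mesenchyme beneath it, while EN1 in the ventral ectoderm keeps WNT7A out of the ventral side. In mice without Lmx1b, dorsal limb structures take on a ventral form, so the gene is used as the mark of dorsal limb mesenchyme. Axes of the limb bud are patterned together: WNT7A also helps to maintain SHH in posterior mesenchyme, and HOX genes of the HOXA and HOXD clusters mark distal mesenchyme.

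The cells came from whole forelimbs of wild type chicken embryos, with 2 E4, 3 E6 and 3 E10 embryos, and those of a stage were pooled into 1 droplet library. Each stage has 1 library, so no difference had a replicate check, and cells of a library are not replicates. All intervals are 95% intervals that cover counting error only, and no p-value was computed. The 2 E4 embryos were not separated: of the W-linked genes, Wpkci-7 had a UMI in 4520 of the 4522 cells, while SPIN1W and NIPBLL had one in 903 and 1267. The E4 library held 22765180 UMIs, the E6 library 15004113 and the E10 library 46497874. Of the PRRX1 cell barcodes, E4 shared 2 with E6 and 9 with E10.

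LMX1B-high cells were the deeper cells of the library. Their median was 5651.5 UMIs and 2234 genes, against 3575 UMIs and 1613 genes in LMX1B-zero cells. Cells with 1 LMX1B UMI lay between, with a median of 4660.5 UMIs. The share of cells with at least 2 LMX1B UMIs was 0.840% among cells with under 2000 UMIs, 4.86% among those from 4000 to under 6000 and 26.8% among those of 8000 or more. LMX1B-zero is thus a statement of detection that depends on the depth of the cell. To compare the groups at equal depth, every cell was thinned to 2000 UMIs, which left 190 LMX1B-high cells (2 left out) and 3540 LMX1B-zero cells (228 left out). Levels below are CPM, the count of a gene scaled to a fixed total, of the summed thinned UMIs, from 380000 UMIs of LMX1B-high cells and 7080000 of LMX1B-zero cells. Thinning does not undo the choice of deeper cells, so the comparison among cells with at least 4000 UMIs before thinning (156 LMX1B-high and 1471 LMX1B-zero cells), added after the depths were seen, is given beside the groups of genes. The LMX1B-high cells were deeper there too, with medians of 6208 UMIs against 4972.

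**Figure D1:**
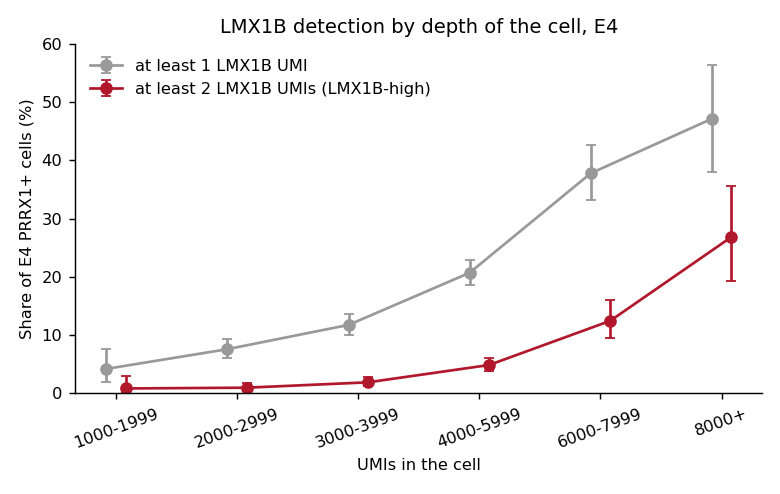
Share of E4 PRRX1 cells with LMX1B (vertical axis, percent) by the number of UMIs in the cell (horizontal axis), for at least 1 LMX1B UMI in grey and at least 2 in red; bars are exact binomial 95% intervals. Both shares are highest in the deepest cells, at 47.2% and 26.8% in cells of 8000 or more UMIs.

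The LMX1B UMIs themselves were few. Among LMX1B-high cells, 136 had 2 LMX1B UMIs, 48 had 3, 7 had 4 and 1 had 5. Over all PRRX1 cells, LMX1B stood at 55.0 CPM, against 26.1 CPM (15.5 to 41.2) in 46400 E4 barcodes of 10 to 100 UMIs, which hold free RNA. Of 71 cells without PRRX1 and with at least 3 UMIs of muscle, endothelial, blood, ectodermal or neural crest markers, 2 had an LMX1B UMI (2.82%, 0.343 to 9.81) and 0 had 2, at a median depth of 3801 UMIs. In the PRRX1 cells the share was 16.7% (15.6 to 17.8) for any LMX1B UMI and 4.25% (3.68 to 4.87) for at least 2, at a median depth of 3735 UMIs. Cells with a single LMX1B UMI are in neither group and are shown apart.

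Both groups had the markers of limb mesenchyme. PRRX1, which was part of the selection, stood at 1714 CPM in LMX1B-high cells and 1637 CPM in LMX1B-zero cells before thinning. TWIST1, a bHLH factor of mesenchyme, had 416 CPM in LMX1B-high cells and 449 CPM in LMX1B-zero cells, and TBX5, the T-box factor of the forelimb, had 179 and 224 CPM in the same order. Markers of other cell types were near 0: the summed markers of muscle, endothelium, blood and neural crest each came to at most 2.63 CPM in LMX1B-high cells and at most 9.60 CPM in LMX1B-zero cells. Ectodermal markers summed to 15.8 CPM in LMX1B-high cells and 35.0 CPM in LMX1B-zero cells. Most of the LMX1B-zero sum was KRT7, a keratin, with 0 CPM in LMX1B-high cells and 19.1 CPM in LMX1B-zero cells. EPCAM and TP63 had 7.89 and 5.26 CPM in LMX1B-high cells, from 3 and 2 UMIs, and 3.81 and 1.69 CPM in LMX1B-zero cells.

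EN1 was seen in LMX1B-zero cells and not in LMX1B-high cells. These are PRRX1 cells of the mesenchyme, while EN1 acts on WNT7A in the ventral ectoderm. The paper that reported these data lists EN1 as an E4 marker of a connective tissue cluster. Many lower genes named below are on that list: GATA5, APOA1, EBF3, AKR1D1, PTN, ALCAM, TGFB2, SEMA3A and NRSN1. So are BAMBI, MSX2, SMAD6, TWIST2, LUM, DCN and COL3A1. Its list for another E4 connective tissue cluster holds SMOC1, VEGFD, HOXD12, HOXD11 and NR2F2, which were higher in LMX1B-high cells. How the LMX1B groups divide over these clusters was not tested. Whether EN1 marks ventral mesenchyme here was not tested. EN1 had 0 thinned UMIs in LMX1B-high cells and 195 in LMX1B-zero cells (27.5 CPM), a level at least 3.49-fold lower in LMX1B-high cells when 3 counts are taken as the floor of the group. The exact interval of its log2 ratio reached up to -1.49, a weaker bound. Before thinning, 0 of 192 LMX1B-high cells had an EN1 UMI, which allows a share of cells with an EN1 UMI of up to 1.56% by the floor of 3 counts and 1.90% by the exact interval. An EN1 UMI was found in 242 of 3768 LMX1B-zero cells (6.42%, 5.66 to 7.25), and in 5 of 562 cells with 1 LMX1B UMI (0.890%). WNT7A, the ectodermal inducer of LMX1B, had 0 thinned UMIs in both groups. Most LMX1B-zero cells thus had no EN1 UMI either, and their name says only that LMX1B was not detected: ventral cells, and dorsal cells whose LMX1B was missed, cannot be told apart in them. EN1 UMIs were also few in cells with a UMI of the distal genes HOXD13, HOXD12 or HOXA11. After thinning, LMX1B-zero cells with such a UMI had 1 EN1 UMI in 678 cells, and those without had 204 in 2862. Each of these sets was thinned anew, so their EN1 UMIs need not add up to the 195 of the main draw. EN1 stayed at 0 when the 554 thinned cells with 1 LMX1B UMI were added to the LMX1B-high cells.

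Across the genome, few genes separated the groups. Of 3230 genes with at least 50 CPM over both groups, 107 were at least 1.5-fold higher in LMX1B-high cells (3.31%) and 141 at least 1.5-fold lower (4.37%). The median log2 ratio of all 3230 was 0.03, with every ratio given as LMX1B-high over LMX1B-zero. The interval of the ratio lay above 1 for 103 of the 107 and below 1 for 95 of the 141. The genes were picked by these same ratios, so both counts follow in part from the limit and are no separate check. A gene at 50 CPM had only 19 UMIs in LMX1B-high cells, and 20 further draws of the thinning gave 89 to 115 higher and 127 to 164 lower genes. The filter of 50 CPM was on both groups together, and most of those UMIs were from LMX1B-zero cells. It therefore kept genes that were low in LMX1B-high cells and left out some that were high in LMX1B-high cells alone, so higher and lower genes cannot be compared in number or size. The counts fell to 20 higher and 36 lower genes when the cells with 1 LMX1B UMI joined the LMX1B-high cells, so the numbers of genes past the limit say less than the genes with many UMIs.

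**Figure D2:**
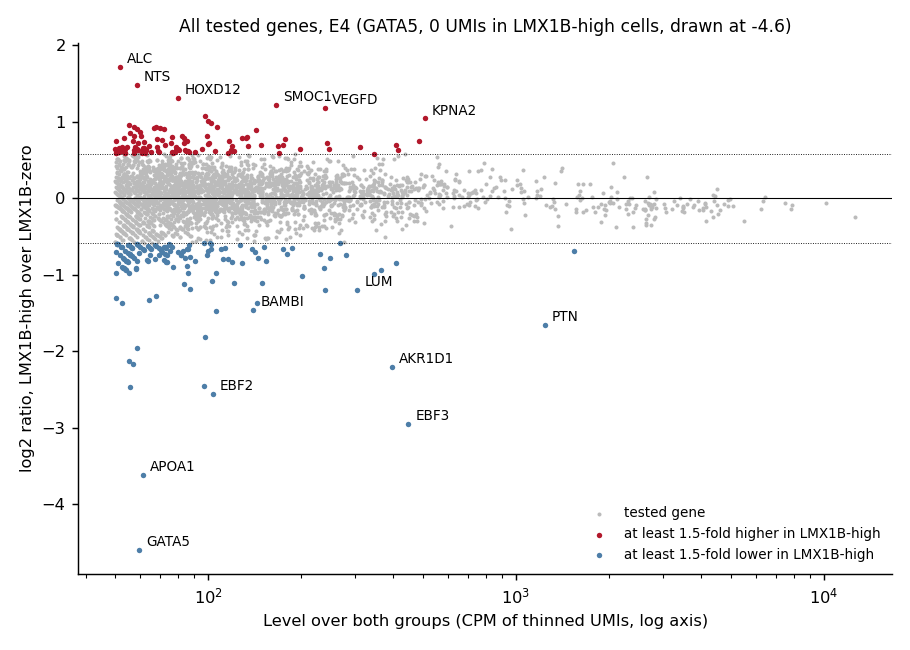
Each point is a gene of the 3230 with at least 50 CPM; the horizontal log axis is its level over both groups in CPM of thinned UMIs and the vertical axis its log2 ratio, LMX1B-high over LMX1B-zero, with dotted lines at 1.5-fold. The 107 higher genes (red) reach 1.72 at ALC, while EBF3, AKR1D1 and PTN stand apart among the 141 lower genes (blue) at higher levels; GATA5, with 0 UMIs in LMX1B-high cells, is drawn at the bottom.

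Among the genes with at least 50 CPM, the highest ratio belonged to ALC, with 153 CPM in LMX1B-high cells and 46.3 CPM in LMX1B-zero cells (log2 ratio 1.72, 1.29 to 2.13). ALC is also the gene next to LMX1B. It is the adjacent line of the feature table, and in the RefSeq annotation of GRCg7b, which is not the assembly used for counting, only LOC121107053 lies between them on chromosome 17. MVB12B, the next annotated gene on that side, had 60.5 CPM in LMX1B-high cells and 54.2 CPM in LMX1B-zero cells (0.16, -0.52 to 0.77). Whether ALC UMIs come from transcripts of the LMX1B locus was not tested.

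Also among the 12 highest ratios were the secreted factors NTS, SMOC1 and VEGFD. NTS, the precursor of the neuropeptide neurotensin, had 150 CPM in LMX1B-high cells and 53.7 CPM in LMX1B-zero cells (1.48, 1.05 to 1.89). SMOC1, a secreted calcium-binding protein that modulates BMP signalling, had 363 CPM in LMX1B-high cells and 156 CPM in LMX1B-zero cells (1.22, 0.96 to 1.48). VEGFD, a growth factor of lymphatic and blood vessels, had 511 CPM in LMX1B-high cells and 225 CPM in LMX1B-zero cells (1.18, 0.96 to 1.40). It was the most widely seen of these 3 secreted factors, with a thinned UMI in 54.7% of LMX1B-high cells (47.4 to 62.0) and 29.2% of LMX1B-zero cells (27.7 to 30.7). SMOC1 was seen in 31.6% of LMX1B-high cells and 17.1% of LMX1B-zero cells. In cells with at least 4000 UMIs, NTS was at 1.45, VEGFD at 0.82 and SMOC1 at 0.60.

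HOXD12, DACH1, NONO and CRMP1B were also among the 12 highest. HOXD12, a homeobox gene of the distal bud, had 184 CPM in LMX1B-high cells and 74.0 CPM in LMX1B-zero cells (1.32, 0.93 to 1.68). DACH1, a transcriptional cofactor expressed in the distal limb bud, had 103 CPM in LMX1B-high cells and 52.8 CPM in LMX1B-zero cells (0.96, 0.44 to 1.44). NONO, an RNA-binding protein of nuclear paraspeckles, had 192 CPM in LMX1B-high cells and 94.9 CPM in LMX1B-zero cells (1.02), a ratio that further draws put between 0.36 and 1.01. CRMP1B, of the collapsin response mediator family, had 105 CPM in LMX1B-high cells and 55.1 CPM in LMX1B-zero cells (0.93), with further draws between 0.32 and 1.31. Among cells with at least 4000 UMIs, HOXD12 was at 0.90, DACH1 at 1.22, NONO at 0.81 and CRMP1B at 0.48.

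The remaining 4 of the 12 highest are genes of mitosis and nuclear import. KPNA2, an importin whose level peaks late in the cell cycle, had 992 CPM in LMX1B-high cells and 479 CPM in LMX1B-zero cells (1.05, 0.89 to 1.20). ARHGAP11A, a gene of dividing cells, and DLGAP5, a spindle protein, had ratios of 1.08 and 0.98. BUB1, a kinase of the spindle checkpoint, had 195 CPM in LMX1B-high cells and 102 CPM in LMX1B-zero cells (0.93). Of the 7 tested genes of the G2M list, 4 were past the limit on the higher side (BUB1, CENPF, NUSAP1 and UBE2C), beside 3.31% of all genes, with a list median of 0.68. Of the 12 tested S phase genes, 0 were past the limit in either direction, with a median of -0.11.

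Depth moved with the G2M genes. Cells with a thinned G2M UMI had a median of 4144.5 UMIs before thinning, and cells without one 3163. The summed G2M list came to 3392 CPM (3209 to 3582) in LMX1B-high cells and 2257 CPM (2222 to 2292) in LMX1B-zero cells. When the LMX1B groups were set on the thinned counts instead, it came to 2480 CPM (2181 to 2809) in 50 LMX1B-high cells and 2348 CPM (2314 to 2382) in 3906 LMX1B-zero cells. Those LMX1B-high cells were still deeper before thinning, with a median of 4881 UMIs against 3795.5. In that comparison the ratio of CENPF, a kinetochore protein, was -0.24 (-0.72 to 0.20). BUB1 was at 0.48 (-0.36 to 1.21), NUSAP1 at 0.48 (-0.16 to 1.06) and UBE2C at 0.52 (-0.10 to 1.07). At 4000 UMIs or more per cell, the G2M sum was 3965 CPM in LMX1B-high cells and 2992 CPM in LMX1B-zero cells, and of the 4 genes past the limit only BUB1 was still past it, at 0.71. The S phase sum was 2647 CPM in LMX1B-high cells and 2625 CPM in LMX1B-zero cells.

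Transcription factors of connective tissue were among the 12 lowest ratios. EBF3, an early B-cell factor family transcription factor found in connective tissue progenitors, had 60.5 CPM in LMX1B-high cells and 468 CPM in LMX1B-zero cells (-2.95, -3.61 to -2.36). A thinned EBF3 UMI was found in 7.37% of LMX1B-high cells (4.09 to 12.05) and 46.2% of LMX1B-zero cells (44.5 to 47.8). Its relative EBF2 had 18.4 CPM in LMX1B-high cells and 108 CPM in LMX1B-zero cells (-2.55, -3.87 to -1.50). GSC, the homeobox gene goosecoid, had 15.8 CPM in LMX1B-high cells and 61.2 CPM in LMX1B-zero cells (-1.95, -3.41 to -0.82). These 3 transcription factors were each more than 3-fold lower in LMX1B-high cells.

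GATA5, a zinc-finger factor, and APOA1, the main protein of high-density lipoprotein, were nearly absent from LMX1B-high cells. GATA5 had 0 thinned UMIs in LMX1B-high cells and 445 in LMX1B-zero cells (62.9 CPM), at least 7.96-fold lower by the floor of 3 counts. The exact interval of the GATA5 log2 ratio reached up to -2.69, a weaker bound. APOA1 had 2 thinned UMIs in LMX1B-high cells (5.26 CPM) and 457 in LMX1B-zero cells (64.5 CPM), with a log2 ratio of -3.62 (-6.67 to -1.76). Further draws of the thinning gave -4.48 or lower for APOA1, and all UMIs without thinning gave -4.98. In LMX1B-zero cells, 8.39% had a GATA5 UMI and 6.24% an APOA1 UMI, so both were seen in a small share of that group too. Both were also nearly absent from the 678 LMX1B-zero cells with a HOXD13, HOXD12 or HOXA11 UMI. GATA5 had 6 thinned UMIs there (4.42 CPM) and APOA1 7 (5.16 CPM). The 85 LMX1B-high cells with such a UMI had 0 and 1. In LMX1B-zero cells without such a UMI, GATA5 stood at 77.6 CPM and APOA1 at 78.3 CPM.

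AKR1D1, a steroid 5-beta-reductase, and PTN, the heparin-binding growth factor pleiotrophin, differed at high levels. AKR1D1 had 89.5 CPM in LMX1B-high cells and 412 CPM in LMX1B-zero cells (-2.20, -2.74 to -1.72). PTN had 408 CPM in LMX1B-high cells and 1285 CPM in LMX1B-zero cells (-1.66, -1.89 to -1.43). PTN was still seen in 38.4% of LMX1B-high cells (31.5 to 45.7), against 65.3% of LMX1B-zero cells (63.7 to 66.8).

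The other 5 of the 12 lowest had 4 to 11 thinned UMIs in LMX1B-high cells. ALCAM, a cell adhesion molecule, had 18.4 CPM in LMX1B-high cells and 101 CPM in LMX1B-zero cells (-2.46, -3.78 to -1.41). TGFB2, a TGF-beta ligand, had 13.2 CPM in LMX1B-high cells and 59.2 CPM in LMX1B-zero cells (-2.17, -3.80 to -0.94). NRSN1, a membrane protein known from neurons, had 28.9 CPM in LMX1B-high cells and 102 CPM in LMX1B-zero cells (-1.81, -2.82 to -0.96). Further draws put TGFB2 between -4.62 and -1.91. The 2 that remain had weaker ratios without thinning. COLEC12, a scavenger receptor, had a ratio of -2.46 in the draw used, while the lowest of 20 further draws was -1.84 and all UMIs without thinning gave -1.24. SEMA3A, a repulsive axon guidance cue, had -2.13, with further draws from -2.41 to -0.64 and -1.14 without thinning.

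**Figure D3:**
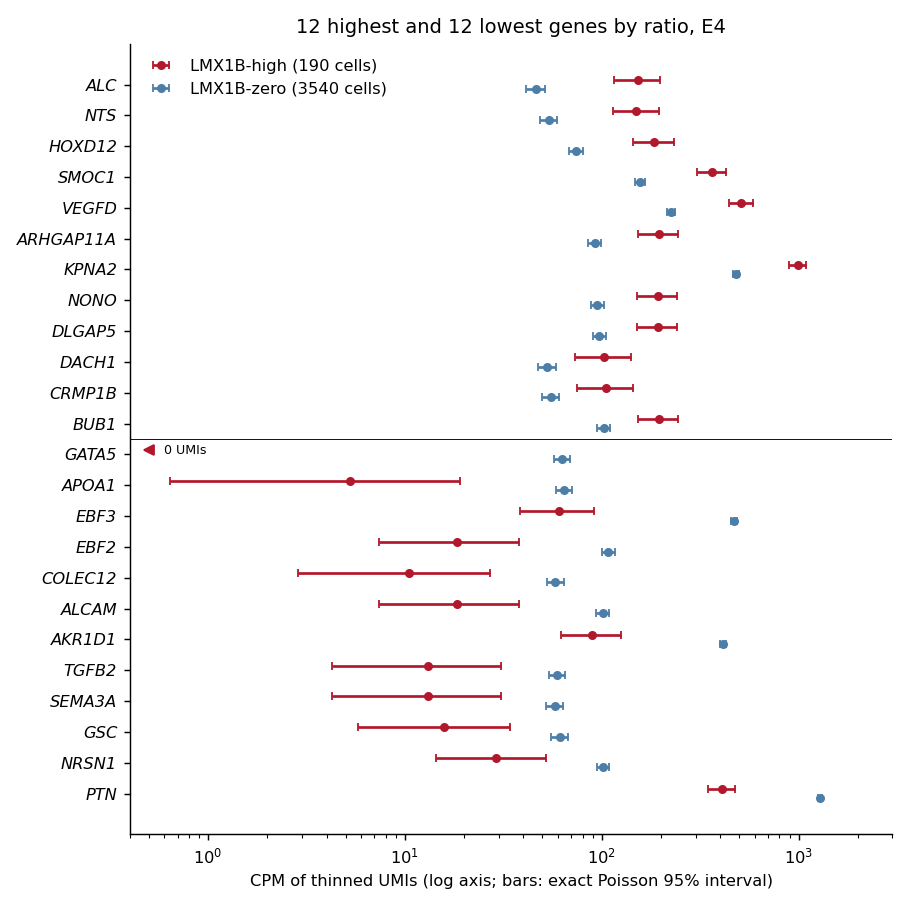
Levels of the 12 genes with the highest ratios (above the line) and the 12 with the lowest (below it) in CPM of thinned UMIs on a log axis, with LMX1B-high cells in red above LMX1B-zero cells in blue for each gene; bars are exact Poisson 95% intervals. These 24 genes were chosen for their ratios in the same draw, so the gaps between the 2 groups' intervals follow in part from that choice. GATA5 had 0 UMIs in LMX1B-high cells and 62.9 CPM in LMX1B-zero cells.

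Cells just outside and just inside the threshold were set side by side, all against the same LMX1B-zero cells. EBF3 had 468, 125, 77.8 and 18.2 CPM in cells with 0, 1, 2 and at least 3 LMX1B UMIs. AKR1D1 had 412, 132, 107 and 45.5 CPM in the same 4 classes, and PTN 1285, 686, 396 and 436 CPM. For these 3 genes, cells with a single LMX1B UMI lay well below cells with none. ALCAM, TGFB2 and GSC were as low with 1 LMX1B UMI (16.2, 9.93 and 13.5 CPM) as with 2 (18.5, 14.8 and 22.2 CPM), within their counting intervals.

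On the higher side, ALC had 46.3, 139, 156 and 145 CPM in the 4 classes, and NTS 53.7, 131, 141 and 173 CPM. VEGFD had 225, 429, 530 and 464 CPM, and SMOC1 156, 255, 374 and 336 CPM. For ALC and NTS the step lay between 0 and 1 LMX1B UMI. For SMOC1, and for KPNA2 with 479, 645, 985 and 1009 CPM, a further step lay between 1 and 2. The genes of both sides were picked for their ratios in this draw, between cells with at least 2 LMX1B UMIs and cells with 0. That choice favours a step between 1 and 2, which all 12 of the highest genes had. Median depth before thinning rose at each step, with 3575, 4660.5 and 5526.5 UMIs in cells with 0, 1 and 2 LMX1B UMIs. A link between these steps and depth was not tested. The class of at least 3 held 55 cells, and its intervals were wide: 83.1 to 236 CPM for ALC.

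**Figure D4:**
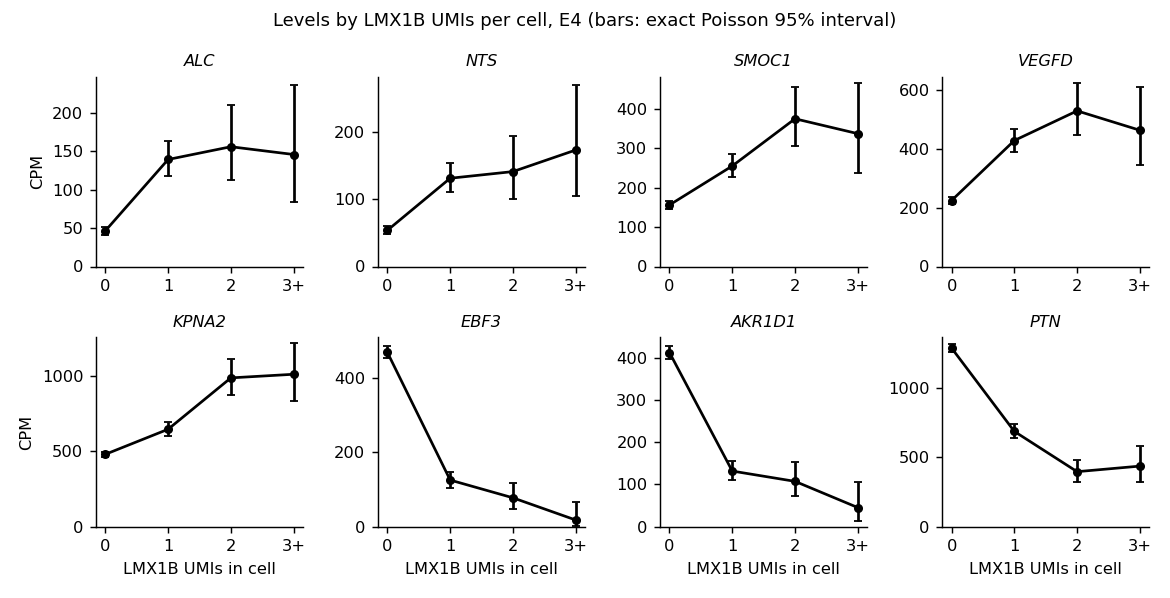
CPM of thinned UMIs (vertical axes, each from 0) of 8 genes in cells with 0, 1, 2 and at least 3 LMX1B UMIs (horizontal axis; 3540, 554, 135 and 55 cells); bars are exact Poisson 95% intervals. EBF3, AKR1D1 and PTN are already lower in cells with 1 LMX1B UMI, at 125, 132 and 686 CPM, than in cells with 0.

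Of 4 tested proximodistal genes, HOXD11 and HOXD12 were past the limit on the higher side (3.31% of all genes) and 0 on the lower (4.37%), with a list median of 0.59 beside 0.03 over all genes. HOXD12 was the only 1 of the pair past it among cells with at least 4000 UMIs, where HOXD11 was at 0.52. HOXD11 had 124 CPM in LMX1B-high cells and 65.0 CPM in LMX1B-zero cells (0.93). MEIS1, a homeobox gene of proximal mesenchyme, had 68.4 CPM in LMX1B-high cells and 87.1 CPM in LMX1B-zero cells (-0.35), short of the limit. Some list members below the filter of 50 CPM whose interval excluded 0 are named too, a choice made after their values were seen. HOXD13 and HOXA11, further homeobox genes of the distal bud, had ratios of 1.99 (1.27 to 2.65) and 1.36 (0.69 to 1.96). Without thinning they were at 1.64 and 0.91. SHOX, a homeobox gene of the more proximal limb, had 36.8 CPM in LMX1B-high cells and 11.2 CPM in LMX1B-zero cells (1.72, 0.79 to 2.55). The SHOX ratio rested on 14 UMIs in LMX1B-high cells, and the interval of the proximal gene MEIS1 was -0.97 to 0.22.

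Of 4 tested anteroposterior genes, 1 was higher (3.31% of all genes) and 1 lower (4.37%), with a median of 0.48. SALL4, a zinc-finger factor of early limb progenitors, had a ratio of 0.69, and ALX1, an anterior homeobox gene, -0.63 with an interval that reached 0.04. In cells with at least 4000 UMIs, SALL4 was at 0.37 and ALX1 at 0.14, both short of the limit. GLI3 and GLI2, transcription factors that respond to SHH, had ratios of 0.54 and 0.41.

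Of 7 tested BMP pathway genes, 5 were past the limit on the lower side, beside 4.37% of all genes, and 0 on the higher, with a list median of -0.69. Among cells with at least 4000 UMIs, 2 of the 5 were still past it, BAMBI at -1.21 and SMAD6 at -0.84, while MSX2 was at -0.32, ID2 at -0.51 and ID3 at -0.50. BAMBI, a decoy receptor induced by BMP signalling, had 52.6 CPM in LMX1B-high cells and 145 CPM in LMX1B-zero cells (-1.46, -2.18 to -0.83). MSX2, a homeobox target of BMP, had 103 CPM in LMX1B-high cells and 208 CPM in LMX1B-zero cells (-1.02, -1.51 to -0.56). ID2 and ID3, inhibitors of bHLH factors and targets of BMP, had ratios of -0.84 and -0.59, and SMAD6, an inhibitory SMAD, -0.69. The 2 tested members short of the limit were ID1 at -0.30 and MSX1 at 0.26. ID3 sat at the edge of the limit, with -0.42 without thinning. Below the filter, the secreted BMP antagonists GREM1 and CHRDL1 were higher. GREM1 had 47.4 CPM in LMX1B-high cells and 15.1 CPM in LMX1B-zero cells (1.65, 0.84 to 2.38). CHRDL1 had a ratio of 1.26 (0.14 to 2.21). With the cells of 1 LMX1B UMI added, GREM1 was at 1.21 and CHRDL1 at 0.42.

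Of 10 tested WNT pathway genes, 4 were past the limit on the higher side (3.31% of all genes) and 1 on the lower (4.37%), with a median of 0.07. At 4000 UMIs or more per cell, all 4 higher genes fell short of the limit, AXIN2 at 0.48, NKD1 at 0.31, WIF1 at 0.53 and ROR1 at 0.50. AXIN2 and NKD1, feedback inhibitors that canonical WNT signalling induces, had ratios of like size. AXIN2 had 134 CPM in LMX1B-high cells and 81.1 CPM in LMX1B-zero cells (0.73, 0.28 to 1.14), and NKD1 94.7 and 57.5 CPM in the same order (0.72, 0.19 to 1.21). WIF1, a secreted WNT antagonist, had 0.86, and ROR1, a receptor of WNT5A, 0.60 with further draws from -0.16 to 0.67. With the cells of 1 LMX1B UMI added, AXIN2 stood at 0.79 and WIF1 at 0.17. SFRP1, another secreted antagonist, was lower, with 89.5 CPM in LMX1B-high cells and 158 CPM in LMX1B-zero cells (-0.82, -1.36 to -0.33).

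Of 11 tested connective tissue factors, EBF3, EBF2, GSC and TWIST2 were past the limit on the lower side (4.37% of all genes) and NR2F2 on the higher (3.31%), with a median of -0.01. The 4 lower genes were also past it among cells with at least 4000 UMIs, while NR2F2 was at 0.18 there. TWIST2, a bHLH factor of dermis and connective tissue, had 71.1 CPM in LMX1B-high cells and 154 CPM in LMX1B-zero cells (-1.11). NR2F2, the nuclear receptor COUP-TFII, had 639 CPM in LMX1B-high cells and 395 CPM in LMX1B-zero cells (0.70, 0.50 to 0.88). TBX15, a T-box factor below the filter, had 9 UMIs in LMX1B-high cells and 43 in LMX1B-zero cells (1.96, 0.74 to 3.02).

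Of 11 tested tendon, cartilage and matrix genes, 4 were lower (4.37% of all genes) and 0 higher (3.31%), with a median of -0.40. These 4 were also past the limit among cells with at least 4000 UMIs. LUM and DCN, the small leucine-rich proteoglycans lumican and decorin, both had ratios of -1.20, LUM with 137 CPM in LMX1B-high cells and 314 CPM in LMX1B-zero cells. The collagen genes COL5A1 and COL3A1 had -0.94 and -0.92, while COL1A1, with 1076 CPM in LMX1B-high cells and 1382 CPM in LMX1B-zero cells (-0.36), was short of the limit. Below the filter, SOX9, the transcription factor of cartilage progenitors, had 19 UMIs in LMX1B-high cells and 115 in LMX1B-zero cells (1.62, 0.84 to 2.33).

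Of 5 tested FGF genes, 1 was lower (4.37% of all genes) and 0 were higher (3.31%), with a median of -0.32. The lower gene was FGFR3, a receptor, at -0.74, and at -0.18 among cells with at least 4000 UMIs. Below the filter, the ligands FGF18 and FGF10 had ratios of 1.61 (0.48 to 2.59) and 0.84 (0.12 to 1.49). Without thinning these 2 ligands were at 1.56 and 0.41. Of 4 tested retinoic acid genes, 0 were past the limit in either direction, with a median of 0.07. ALDH1A2, the enzyme that makes retinoic acid, lay just below the filter. It had 7.89 CPM in LMX1B-high cells and 47.5 CPM in LMX1B-zero cells (3 and 336 UMIs, -2.59, -4.87 to -1.03). All UMIs without thinning gave -1.68 for ALDH1A2, and adding the cells with 1 LMX1B UMI gave -1.10. DHRS3, a retinaldehyde reductase, was at -1.28 (-2.92 to -0.04) and CRABP2, a retinoic acid binding protein, at 1.03 (0.18 to 1.78). With the cells of 1 LMX1B UMI added, DHRS3 was at -0.05 and CRABP2 at 0.27. Among 5 tested axon guidance genes, SEMA3A was the single member past the limit, on the lower side (4.37% of all genes), with a median of -0.24.

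Since HOXD12 stood among the highest ratios, the position of the cells along the proximodistal axis was looked at. LMX1B-high cells made up 87 of 958 cells with a UMI of HOXD13, HOXD12 or HOXA11 (9.08%, 7.34 to 11.1) and 105 of 3564 cells without (2.95%, 2.42 to 3.56). The cells with such a UMI were also deeper, with a median of 5078 UMIs against 3477, and deeper cells more often pass both thresholds. Scaled to the UMIs of each set, LMX1B stood at 75.7 CPM in cells with such a UMI and 47.2 CPM in cells without. Within the cells with a HOX UMI (85 LMX1B-high and 678 LMX1B-zero cells after thinning), EBF3 was at -2.44 (-3.90 to -1.29) and AKR1D1 at -2.10 (-3.11 to -1.24). These 2 ratios rested on 6 and 11 UMIs in LMX1B-high cells. PTN, with 37, was at -1.10 (-1.62 to -0.62). ALC was at 1.02, SMOC1 at 0.77, DACH1 at 1.05 and AXIN2 at 1.23 in these cells. In cells without a distal HOX UMI, EBF3 stood at -2.44 (-3.13 to -1.82), AKR1D1 at -2.11 (-2.77 to -1.52) and PTN at -1.11 (-1.36 to -0.87). The wide intervals of EBF3 and AKR1D1 in cells with a HOX UMI leave room for a difference between the 2 sets.

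Other ratios were close to 0 within the cells with a HOX UMI. VEGFD was at 0.22 (-0.10 to 0.53) there and at 1.18 (0.82 to 1.51) in cells without. In the same order, DCN was at -0.07 (-0.76 to 0.55) and -1.42 (-2.12 to -0.81). ID2 was at -0.05 (-0.60 to 0.46) and -0.88 (-1.30 to -0.49). BAMBI was at -0.25 (-1.52 to 0.80, from 8 UMIs in LMX1B-high cells) and -1.85 (-2.92 to -0.97). For ID2 and BAMBI the intervals of the 2 sets overlapped. TWIST2 was at 0.70 (-0.05 to 1.39) in cells with a HOX UMI and -1.41 (-2.33 to -0.63) in cells without. The differences between the 2 sets of cells were not tested. HOXD12, at -0.17 among cells with a HOX UMI, helped to define the split, so its ratio there is fixed in part by the choice of cells.

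**Figure D5:**
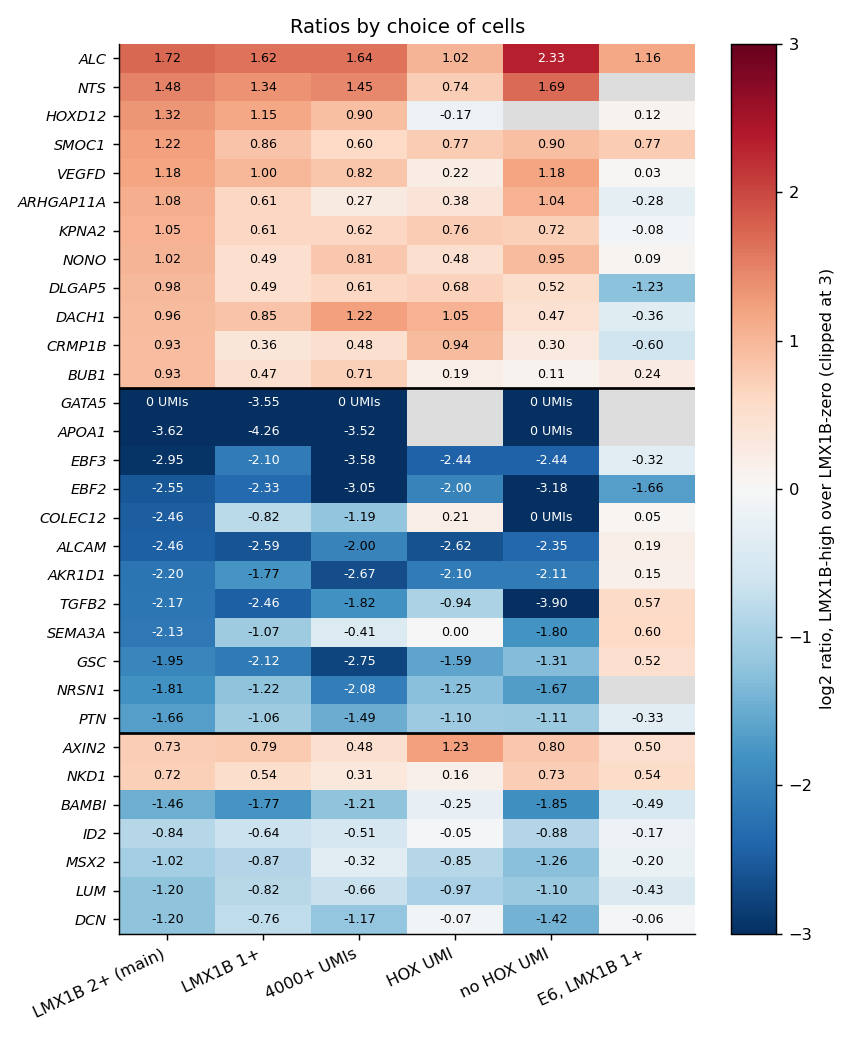
Log2 ratios, LMX1B-high over LMX1B-zero, of 31 genes (rows) under 6 choices of cells (columns): the main comparison, LMX1B at least 1, cells with at least 4000 UMIs, cells with and without a HOXD13, HOXD12 or HOXA11 UMI, and E6 with LMX1B at least 1. Red is higher and blue lower, and grey boxes held under 20 UMIs over both groups. HOXD12, which helped to define the HOX split, is still drawn at -0.17 among cells with a HOX UMI. EBF3 and AKR1D1 stay blue across the 5 E4 columns, while AKR1D1 is at 0.15 at E6.

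E6 gave another library that the selection did not use. There 49 of 2040 PRRX1 cells had at least 2 LMX1B UMIs (2.40%), too few for levels, so 312 cells with at least 1 were set against 1728 with 0 at 1000 UMIs per cell. This comparison was added after the cells had been counted. Of 3187 genes tested at E6, 63 were at least 1.5-fold higher in LMX1B cells (1.98%) and 141 at least 1.5-fold lower (4.42%). At E10, 7 of 4181 PRRX1 cells had at least 2 LMX1B UMIs and no levels were compared.

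Few E4 differences were measured again at E6. Of 76 higher E4 genes tested at E6, 3 were past the limit: ALC, SMOC1 and ATP2B1. They were 3.95% of the 76 and 4.76% of the 63 higher at E6, beside 1.98% of all genes tested there. ALC had 99.4 CPM in E6 LMX1B cells and 44.6 CPM in E6 LMX1B-zero cells (1.16, 0.51 to 1.78). SMOC1 had 76.9 CPM in E6 LMX1B cells and 45.1 CPM in E6 LMX1B-zero cells (0.77, 0.04 to 1.45). Of the 76, 41 had a ratio above 1, as did 49.98% of all genes tested at E6.

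Of 110 lower E4 genes tested at E6, 11 were past the limit. They were 10.0% of the 110 and 7.80% of the 141 lower at E6, beside 4.42% of all genes tested there. Of the 110, 61 had a ratio below 1, as did 49.86% of all genes tested at E6. EBF2 had 25.6 CPM in E6 LMX1B cells and 81.0 CPM in E6 LMX1B-zero cells (-1.66, -2.90 to -0.64). SFRP1 had a ratio of -0.80 (-1.34 to -0.29) and FGFR3 -0.89 (-1.83 to -0.06). The strongest E4 genes differed less at E6: EBF3 was at -0.32 (-0.62 to -0.04), PTN at -0.33 (-0.56 to -0.11) and AKR1D1 at 0.15 (-0.03 to 0.32). TGFB2 was higher in E6 LMX1B cells, at 0.57 (0.22 to 0.90), and VEGFD was at 0.03. The stages differ in threshold, depth and library, and the E4 and E6 ratios were not tested against each other.

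Doublets, other cell types and shallow cells were left out in turn. Scrublet, a doublet caller, marked 213 of 5157 E4 cells (4.13%), 7 LMX1B-high and 194 LMX1B-zero, and without them 97 genes were higher and 148 lower. Without cells with at least 2 UMIs of another cell type's markers, 92 genes were higher and 127 lower. In cells with at least 4000 UMIs, 80 of 3264 tested genes were at least 1.5-fold higher and 155 at least 1.5-fold lower. Of these, 26 and 41 were past the limit in the main comparison too. The named genes were picked for being past the limit in the main comparison, which shares these cells. Of them, 10 of the 22 higher and 19 of the 25 lower were still past it in these deeper cells. EBF3 was at -3.58, AKR1D1 at -2.67, PTN at -1.49 and ALC at 1.64 there. The 12 higher genes that fell short included ARHGAP11A at 0.27, and the 6 lower genes included SEMA3A at -0.41. Of the rest, 4 are in the WNT list, 3 in the BMP list and 3 in the G2M list.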

How the data were processed

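Single-cell RNA-sequencing of pooled chicken forelimbs was analysed from the raw UMI counts per gene and barcode that the authors deposited for 6794880 barcodes per library, made with Cell Ranger 3.0.2 (STAR aligner) on GRCg6a. These deposited counts precede cell calling, quality filters, doublet removal and normalisation. The members and the gene lists were chosen with earlier results of these data known. Cells were selected on UMIs, mitochondrial UMIs and PRRX1, and split by LMX1B. The counts were thinned without replacement to 2000 UMIs per cell (1000 at E6), summed per group and given as CPM. Doublets were kept in the main comparison. Ratio intervals are Clopper-Pearson intervals on a gene's share of UMIs, and level intervals are exact Poisson intervals. Named genes are the dorsoventral list, the 12 highest and 12 lowest ratios among genes with at least 50 CPM, and list members past 1.5-fold. The classes of 3 to 4 and of 5 or more LMX1B UMIs were merged, since 1 cell had 5. HOXA13 and MEIS2 were not matched by symbol. With 1 library per stage no test was made. Tools were scanpy 1.11.5 (Scrublet), scipy 1.17.1, numpy 2.4.6, matplotlib 3.10.9 and pandas 2.3.3 under Python 3.11.15. The procedure was tested on simulated data. Alternatives were run for thinning, thresholds, filters, doublets, other cell types, the HOX and G2M split and leaving out shallow cells. Some genes past the limit are not reported here.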

Additional observations from a re-analysis of the deposited data

Results flagged for a closer look

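Among genes with at least 50 CPM at both stages, 3 named genes past the 1.5-fold limit at E4 lay past it in the other direction at E6, where cells with at least 1 LMX1B UMI were set against cells with none. CRMP1B had a log2 ratio of -0.60 at E6 (21 UMIs in LMX1B cells) and 0.93 at E4. NUSAP1, a spindle protein of the G2M list, had -0.70 at E6 (18 UMIs in LMX1B cells) and 0.68 at E4. SEMA3A had 0.60 at E6 (24 UMIs in LMX1B cells) and -2.13 at E4, where further draws gave -2.41 to -0.64. DLGAP5, below the 50 CPM filter at E6, had -1.23 there (-2.72 to -0.04, 6 UMIs in LMX1B cells) and 0.98 at E4. These E4 values are for cells with at least 2 LMX1B UMIs. With at least 1 at E4, CRMP1B was at 0.36, NUSAP1 at 0.44 and DLGAP5 at 0.49, short of the limit, and SEMA3A at -1.07. The counting intervals of the first 3 E6 ratios include 0, each stage is 1 library, and the difference between the stages was not tested.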

How the results depend on the processing

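The number of genes past the limit depended on the UMIs behind each level. Against 107 higher and 141 lower genes, there were 200 and 262 at 1000 UMIs per cell, 51 and 90 at 3000, and 59 and 63 without thinning. A threshold of at least 1 LMX1B UMI gave 20 and 36, and of at least 3 gave 323 and 392. Groups set on thinned counts gave 251 and 439 (50 LMX1B-high cells), cells without these HOX UMIs 172 and 247, and cells without a G2M UMI 569 and 917 (15 LMX1B-high cells). Cells with a HOX UMI gave 278 lower genes. A filter of 20 CPM gave 328 and 503, a filter of 100 CPM 31 and 42, and a 2-fold limit 8 and 27. The bound on the EN1 log2 ratio by the floor of 3 counts was at most -1.80. It moved to -0.83 at 1000 UMIs per cell, -0.014 with at least 3 LMX1B UMIs and -0.79 with a mitochondrial limit of 5%. Without these HOX UMIs it was -1.32. The exact interval reached up to -1.49 in the main comparison and -1.01 without these HOX UMIs. With at least 3 LMX1B UMIs it reached 0.30 and so included 0. No bound could be had with groups on thinned counts (50 LMX1B-high cells), without a G2M UMI (15), or among cells with a HOX UMI, where LMX1B-zero cells had 1 EN1 UMI.

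Some named ratios changed sign, each with a counting interval that included 0, and the cause was not tested. DACH1 was at -0.22 with at least 3 LMX1B UMIs. ALX1 was at 0.15 and CENPF at -0.24 with groups on thinned counts. Among cells with a HOX UMI, HOXD12 was at -0.17, APOA1 at 0.19, COLEC12 at 0.21, ROR1 at -0.21, SMAD6 at 0.35 and TWIST2 at 0.70. The APOA1 ratio rested on 1 UMI in LMX1B-high cells (-5.31 to 3.15) and that of ROR1 on 4 (-2.16 to 1.26). Without these HOX UMIs, HOXD11 was at -0.96, from 2 UMIs in LMX1B-high cells. Among cells without a G2M UMI, COL3A1 was at 0.54, COL5A1 at 0.075, NKD1 at -0.81 and SMAD6 at 0.38. These had 4, 16, 1 and 5 UMIs in LMX1B-high cells. Among cells with at least 4000 UMIs, an alternative chosen after seeing the data, ALX1 was at 0.14. A split by embryo was not run. No paired analysis was possible because each stage has 1 library.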
